A study of Mus musculus with 4 samples.

Results

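The genes described here encode factors of pre-mRNA splicing and are defined by their gene symbols. They are the 66 protein-coding genes, of 21887 on the assembled chromosomes of the RefSeq annotation of GRCm38, whose symbol starts with Srsf (11 genes), Snrp (12), Prpf (13), Hnrnp (21), Sf3a (3) or Sf3b (6). One of them, Hnrnpa1l2-ps2, carries a pseudogene-style symbol although the annotation lists it as protein-coding. Occupancy of Deaf1, a DNA-binding transcription factor, was measured by chromatin immunoprecipitation and sequencing (ChIP-seq) in C2C12 cells, an established mouse myoblast line. The cells were grown in DMEM with serum, and no genotype or treatment is labelled. The series has 2 libraries precipitated with an antibody to Deaf1 and 2 input libraries without antibody, and peak lists of the ChIP libraries were analysed. All 4 libraries come from 1 line and 1 condition, which leaves occupancy without a comparison between states, and the labels do not say whether the replicates were separate cultures.

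Splicing removes introns from pre-mRNA and is carried out by the spliceosome. Its building blocks are small nuclear ribonucleoproteins (snRNPs), each of which joins a small nuclear RNA to a ring of Sm proteins or, for U6, of Lsm proteins, and to proteins of its own. Several Snrp genes encode the Sm proteins. The SF3a and SF3b complexes are parts of the U2 snRNP, which recognises the branch point of the intron, and the Prpf genes encode proteins that build, activate and remodel the spliceosome. SR proteins (Srsf genes) and hnRNP proteins (Hnrnp genes) are RNA-binding proteins that steer which splice sites are used. The Prpf, Snrp, Sf3a and Sf3b families are here called the core families. This grouping by role was made after the family counts had been seen.

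Deaf1 regions lay at an end of many core spliceosome genes and of few SR and hnRNP genes. Where a start was listed, that end was mostly the start. A gene was counted as bound when a region lay within 1 kb of either end of its annotated span. In the combined list, which holds the 1550 regions found in both replicates, 21 of the 66 splicing genes (31.8%) were bound, where 6.99% of all 21887 protein-coding genes and 6.91% of the 21821 other genes were. By family, 7 of 13 Prpf genes (53.8%), 6 of 12 Snrp genes, 2 of 3 Sf3a genes and 3 of 6 Sf3b genes had a region. By contrast, 2 of 21 Hnrnp genes (9.52%) and 1 of 11 Srsf genes (9.09%) had one, close to the share among other genes. Together, 18 of 34 core genes (52.9%) and 3 of 32 Srsf and Hnrnp genes (9.38%) were bound. These are counts over named genes in 1 group of libraries, and no test of the difference was made.

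**Figure D1:**
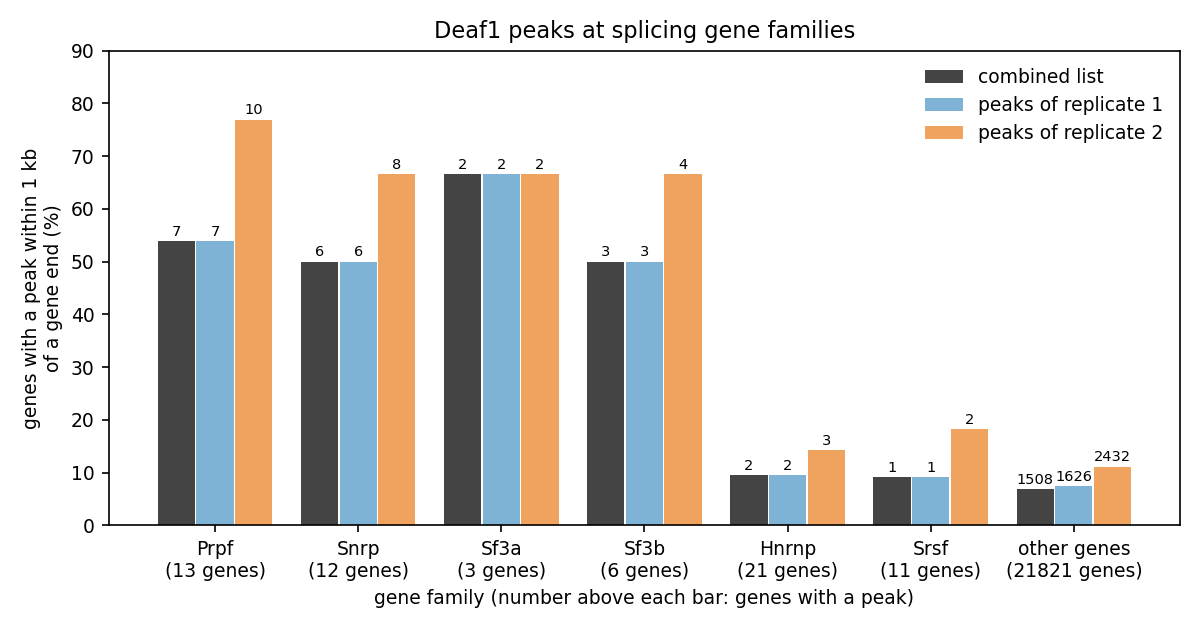
Share of genes with a peak within 1 kb of a gene end (y axis, %), by family (x axis), for the combined list and for all peaks of each replicate; the number above each bar is the count of genes. The 4 core families stand between 50% and 66.7% in the combined list, and Hnrnp, Srsf and other genes stand below 10%.

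The promoters of the most strongly enriched members are shown next and cover the regions only in part. The Prpf6 summit, 4 bp after the start, and the stronger of the 2 Prpf4b regions lie outside the printed stretches. The bases before the annotated start are printed for the 5 genes with the largest mean fold enrichment among those whose summit fell in the promoter window of the RefSeq table (GRCm38.p6). Srsf1 and Hnrnpk, which had no peak in either list, follow for contrast and were picked as well-known members. Each stretch is 250 bases long, runs 5′ to 3′ on the gene's strand and ends 1 base before the start site. Capitals mark TTCG, the core of the sequence that Deaf1 is known to bind, and CCGGAAG, 1 form of the sites of ETS-family factors, each on either strand. Other forms of ETS sites were not searched for and are not marked. The stretches lie at chr19:10894981-10895230 (Prpf19, plus strand), chr17:27839837-27840086 (Snrpc, plus), chr7:3629735-3629984 (Prpf31, plus), chr2:181601069-181601318 (Prpf6, plus), chr13:34875279-34875528 (Prpf4b, plus), chr11:88047123-88047372 (Srsf1, plus) and chr13:58402118-58402367 (Hnrnpk, minus).
Prpf19: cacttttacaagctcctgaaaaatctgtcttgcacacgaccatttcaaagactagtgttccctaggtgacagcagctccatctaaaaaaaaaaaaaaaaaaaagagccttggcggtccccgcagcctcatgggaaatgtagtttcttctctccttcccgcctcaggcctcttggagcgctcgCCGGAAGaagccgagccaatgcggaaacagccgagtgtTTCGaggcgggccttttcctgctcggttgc
Snrpc: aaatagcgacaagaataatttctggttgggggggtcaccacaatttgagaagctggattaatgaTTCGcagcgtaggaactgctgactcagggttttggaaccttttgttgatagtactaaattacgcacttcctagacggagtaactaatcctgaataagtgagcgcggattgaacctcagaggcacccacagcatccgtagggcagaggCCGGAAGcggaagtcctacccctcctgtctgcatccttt
Prpf31: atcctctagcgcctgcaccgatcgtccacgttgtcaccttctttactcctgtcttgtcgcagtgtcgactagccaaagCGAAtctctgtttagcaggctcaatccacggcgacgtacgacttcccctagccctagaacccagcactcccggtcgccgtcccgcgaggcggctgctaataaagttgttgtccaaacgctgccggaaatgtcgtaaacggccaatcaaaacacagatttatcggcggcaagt
Prpf6: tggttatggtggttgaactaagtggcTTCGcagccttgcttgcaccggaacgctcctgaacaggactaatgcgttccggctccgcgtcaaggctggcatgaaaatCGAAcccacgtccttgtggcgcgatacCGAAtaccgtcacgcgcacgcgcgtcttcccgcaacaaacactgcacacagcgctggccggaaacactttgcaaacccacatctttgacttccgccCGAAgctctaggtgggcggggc
Prpf4b: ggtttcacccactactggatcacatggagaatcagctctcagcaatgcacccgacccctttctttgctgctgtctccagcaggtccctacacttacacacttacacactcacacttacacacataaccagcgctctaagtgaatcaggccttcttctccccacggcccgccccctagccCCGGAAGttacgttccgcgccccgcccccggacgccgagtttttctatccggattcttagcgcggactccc
Srsf1: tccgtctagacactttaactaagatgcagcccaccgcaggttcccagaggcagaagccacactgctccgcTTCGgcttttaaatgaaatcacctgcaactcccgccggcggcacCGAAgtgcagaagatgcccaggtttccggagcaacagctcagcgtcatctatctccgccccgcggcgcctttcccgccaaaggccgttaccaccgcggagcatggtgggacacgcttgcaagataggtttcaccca
Hnrnpk: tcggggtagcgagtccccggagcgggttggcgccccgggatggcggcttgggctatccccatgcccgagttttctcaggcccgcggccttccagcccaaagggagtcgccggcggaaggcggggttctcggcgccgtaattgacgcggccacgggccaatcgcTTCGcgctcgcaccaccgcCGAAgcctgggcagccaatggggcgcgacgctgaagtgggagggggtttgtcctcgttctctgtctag

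The replicates differed in peak number, with 1860 peaks in replicate 1 and 3126 in replicate 2. The fold enrichment is the value the authors' peak caller gave each summit, ChIP over background. The fragments that overlap at a summit were counted back from this fold and its p-value, and their 95% exact Poisson interval covers counting error only. Median summits held 22 fragments in replicate 1 and 23 in replicate 2. Many summits at splicing genes stood at the lowest background of their list, 1.80 fragments in replicate 1 and 2.09 in replicate 2. At those summits the fold need not rest on a local estimate of background. The score of the combined list stands for an irreproducible discovery rate (IDR) and is a single value for both libraries. It was read as the global IDR of a region. This is the expected share of irreproducible regions among those ranked at least as high.

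Replicate 1 alone gave 21 bound splicing genes (31.8%), against 7.53% of all protein-coding genes. Replicate 2 alone gave 29 (43.9%), against 11.2%. All 21 genes of the combined list had a peak in each replicate's own list, 8 more had one in replicate 2 only, and none had one in replicate 1 only. Over all 21887 protein-coding genes, 914 had a peak in replicate 2 only and 102 in replicate 1 only. The remaining 37 splicing genes had no peak at an end in either list, 27 of the 32 Srsf and Hnrnp genes and 10 of the 34 core genes. Most protein-coding genes, 19324 of the 21887, had none either. In the list of replicate 2, 24 of 34 core genes (70.6%) had a peak, against 5 of 32 Srsf and Hnrnp genes (15.6%).

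Among the Prpf genes, Prpf19 carried the strongest region of all members of the 6 families. It encodes the ubiquitin ligase at the centre of the Prp19 complex, which is needed to activate the spliceosome. The region spanned chromosome 19 from 10894580 to 10895854, with the replicate 2 summit 71 bp upstream of the annotated start. In replicate 1 the fold enrichment was 27.5, from 76 fragments (interval 59.9 to 95.1). In replicate 2 it was 17.8, from 103 fragments (84.1 to 124.9), and the 2 values average 22.7 ± 6.8 (SD, n = 2). The higher fold went with the lower number of fragments, because the background at the summit was 1.80 fragments in replicate 1 and 4.84 in replicate 2. This was the 38th largest mean fold of the 1550 regions. Its IDR was 0.351, and it was the only region at a member of the families that held 2 peaks of a replicate.

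Prpf4b encodes a kinase of the spliceosome and was the only member of the families with 2 regions within 1 kb of an end. The first lay on chromosome 13 from 34874412 to 34874575, with a fold of 9.90 in replicate 1 and 12.6 in replicate 2 (29 and 38 fragments). The second lay from 34875280 to 34875530, 62 bp upstream of the annotated start by its summit, with folds of 9.88 and 11.7 (31 and 35 fragments). The means were 11.3 ± 1.9 and 10.8 ± 1.3 (SD, n = 2), which differ by less than the spread between replicates, and the IDR was 0.0144 and 0.0161.

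Prpf31 and Prpf6 encode bridging proteins of the tri-snRNP, the assembly of the U4, U5 and U6 snRNPs that joins the forming spliceosome. The region of Prpf31, on chromosome 7 from 3629843 to 3630035, had folds of 9.64 and 12.3 (26 and 37 fragments) and an IDR of 0.0165. Its summit lay 41 bp from the start of Prpf31 but only 15 bp from an end of Tfpt, so it cannot be given to 1 gene. The region of Prpf6, on chromosome 2 from 181601218 to 181601375, had folds of 9.28 and 12.5 (25 and 43 fragments), an IDR of 0.0187 and a summit 4 bp downstream of the start.

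The other 3 bound Prpf genes had weaker regions. At Prpf38a, which encodes a protein of spliceosome activation, the folds were 8.92 in replicate 1 and 6.98 in replicate 2 (IDR 0.0566). Its relative Prpf38b had 7.85 and 6.15 (IDR 0.275). Prpf18, a factor of the second catalytic step, had 8.57 and 5.34 (IDR 0.305). All 3 were lower in replicate 2 by fold, although their summits held more fragments there than in replicate 1 (33 against 24, 23 against 21, and 25 against 23). These counts were not scaled between the libraries, whose lowest backgrounds were 1.80 fragments in replicate 1 and 2.09 in replicate 2.

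Peaks of replicate 2 alone stood at Prpf3, Prpf4 and Prpf8. Prpf3 and Prpf4 encode proteins of the U4/U6 snRNP, and Prpf8 the large U5 protein around which the catalytic centre forms. Their folds were 7.77 (23 fragments, interval 14.6 to 34.5), 6.48 (19 fragments, 11.4 to 29.7) and 4.26 (28 fragments, 18.6 to 40.5). Each summit lay within 51 bp of an end of the gene. Prpf39 and Prpf40b had no peak at an end in either list.

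Among the Snrp genes, Snrpc had the strongest region, and its IDR was the lowest among members of the 6 families. It encodes U1-C, a U1 snRNP protein that helps to recognise the 5′ splice site. The region lay on chromosome 17 from 27839980 to 27840186, 25 bp upstream of the annotated start by its summit. Replicate 1 gave a fold of 13.1 from 58 fragments (interval 44.0 to 75.0), and replicate 2 gave 10.6 from 71 fragments (55.5 to 89.6). They average 11.8 ± 1.8 (SD, n = 2), and the IDR was 0.00997.

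Snrpb2, which encodes the U2-B'' protein, and Snrpe, which encodes an Sm ring protein, had the other Snrp regions with an IDR under 0.05. At Snrpb2, on chromosome 2 from 143062970 to 143063077, the folds were 7.43 and 10.2 (26 and 31 fragments, IDR 0.0281). At Snrpe, on chromosome 1 from 133610195 to 133610430, they were 8.16 and 7.79 (43 and 52 fragments, IDR 0.0154). The mean fold at Snrpe, 7.98 ± 0.26 (SD, n = 2), varied less between replicates than at most other members. Its background was high in both libraries, 4.39 and 5.80 fragments, so a middling fold stood on the third largest number of fragments among the members in each replicate.

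The Sm genes Snrpd1 and Snrpd3 and the U1-A gene Snrpa had regions that repeated less well. Snrpd1 had folds of 6.05 in replicate 1 and 9.67 in replicate 2 (IDR 0.106). Snrpd3 had 9.64 and 4.56 (IDR 0.326), with 26 and 30 fragments over backgrounds of 1.80 and 5.80, and its summit lay closer to an end of Gucd1 (20 bp) than to its own (90 bp). Snrpa had 6.0 in replicate 1 and 3.60 in replicate 2, the lowest mean fold of the 22 member regions at 4.80 ± 1.7 (SD, n = 2), and an IDR of 0.511. Snrpd1 was thus higher in replicate 2, and the other two were higher in replicate 1.

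The Snrp genes with a peak in replicate 2 only were both Sm genes. Snrpb, the gene of SmB, had a fold of 9.39 (28 fragments, interval 18.6 to 40.5), and Snrpd2, the gene of SmD2, had 8.42 (25 fragments, 16.2 to 36.9) 36 bp upstream of its start. Both folds were above the replicate 2 median of 6.41 over all peaks. Of the 7 Sm genes of the family that are not Snrpn (Snrpb, Snrpd1, Snrpd2, Snrpd3, Snrpe, Snrpf and Snrpg), 3 had a combined region, 2 had a peak in replicate 2 only, and Snrpf and Snrpg had none. Snrpa1, the gene of U2-A', and Snrpn, an imprinted relative of Snrpb, had none either.

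In the SF3a complex, the genes of 2 of the 3 subunits were bound. Sf3a3 had folds of 8.80 and 11.0 (31 and 33 fragments, IDR 0.0190) on chromosome 4 from 124714674 to 124714890, with the summits of both replicates at the same base, 80 bp upstream of the start. Sf3a2 had 7.85 and 7.43 (21 and 28 fragments, IDR 0.0726), and its summit lay 2 bp from an end of Plekhj1 and 107 bp from its own start. Sf3a1 had no peak at an end.

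In the SF3b complex, Sf3b4 and Sf3b6 had the repeatable regions. Sf3b6 encodes the small subunit close to the branch point adenosine, and its region on chromosome 12 from 4817451 to 4817589 had folds of 7.31 and 13.3 (32 and 40 fragments, IDR 0.0192). At Sf3b4, on chromosome 3 from 96172417 to 96172546, the folds were 8.03 and 10.0 (25 and 30 fragments, IDR 0.0283). The region of Sf3b2 was weaker in replicate 2, with folds of 7.14 and 3.97 over backgrounds of 1.80 and 5.80 fragments (IDR 0.511). Sf3b5 had a replicate 2 peak only, with a fold of 9.39 (28 fragments). Sf3b1, the gene of the large scaffold subunit, and Sf3b3 had no peak at an end in either list.

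The 3 bound genes outside the core families were Hnrnpul1, Hnrnpul2 and Srsf11. Hnrnpul1 and Hnrnpul2 encode relatives of hnRNP U, an RNA- and DNA-binding nuclear protein. At Hnrnpul1 the folds were 6.78 and 6.80 (18 and 20 fragments, IDR 0.239). Its region was at the edge of the rule, with a summit 1025 bp from the gene end and only the region's flank within 1 kb, at position -484 from the annotated start. At Hnrnpul2 the folds were 6.78 and 8.29 (18 and 25 fragments, IDR 0.0963), 28 bp from the gene end. Srsf11, which encodes an SR-related protein, had 5.72 and 9.39 (16 and 28 fragments, IDR 0.261). None of these 3 reached an IDR of 0.05.

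The remaining peaks at ends of SR and hnRNP genes came from replicate 2 alone. Hnrnpa0 had a fold of 5.50 (16 fragments), 402 bp upstream of its start. Srsf2, which encodes the SR protein SC35, had 3.08 (14 fragments over a background of 3.87) with a q of 0.0416, near the limit of the peak list. The genes Srsf1, Srsf3, Srsf4, Srsf5, Srsf6, Srsf7, Srsf9, Srsf10 and Srsf12 had no peak at an end, and neither had the well-known Hnrnpa1, Hnrnpa2b1, Hnrnpc, Hnrnpk, Hnrnpl, Hnrnpm and Hnrnpu.

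Hnrnpf was the member that the rule by gene ends missed. It encodes an RNA-binding protein for G-rich sequences and has 4 annotated starts. A pair of regions lay inside its span on chromosome 6, from 117906643 to 117906928 and from 117907613 to 117907921, with summits 36 and 45 bp upstream of internal starts. By gene ends, both summits were nearer to 4933440N22Rik (940 and 446 bp) than to Hnrnpf (6406 and 7419 bp). The folds were 5.10 and 10.4 at the first (31 fragments in each replicate) and 5.54 and 13.0 at the second (24 and 39 fragments). Beyond Hnrnpul1, the combined summits nearest to an end of an uncalled member lay 6350 bp away at Srsf2 and 6406 bp away at Hnrnpf. A distance of 5 kb thus added no member. A weaker region 2111 bp from the end of Hnrnpul1, with folds of 3.77 and 8.42, lay 15 bp from Ccdc97.

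**Figure D2:**
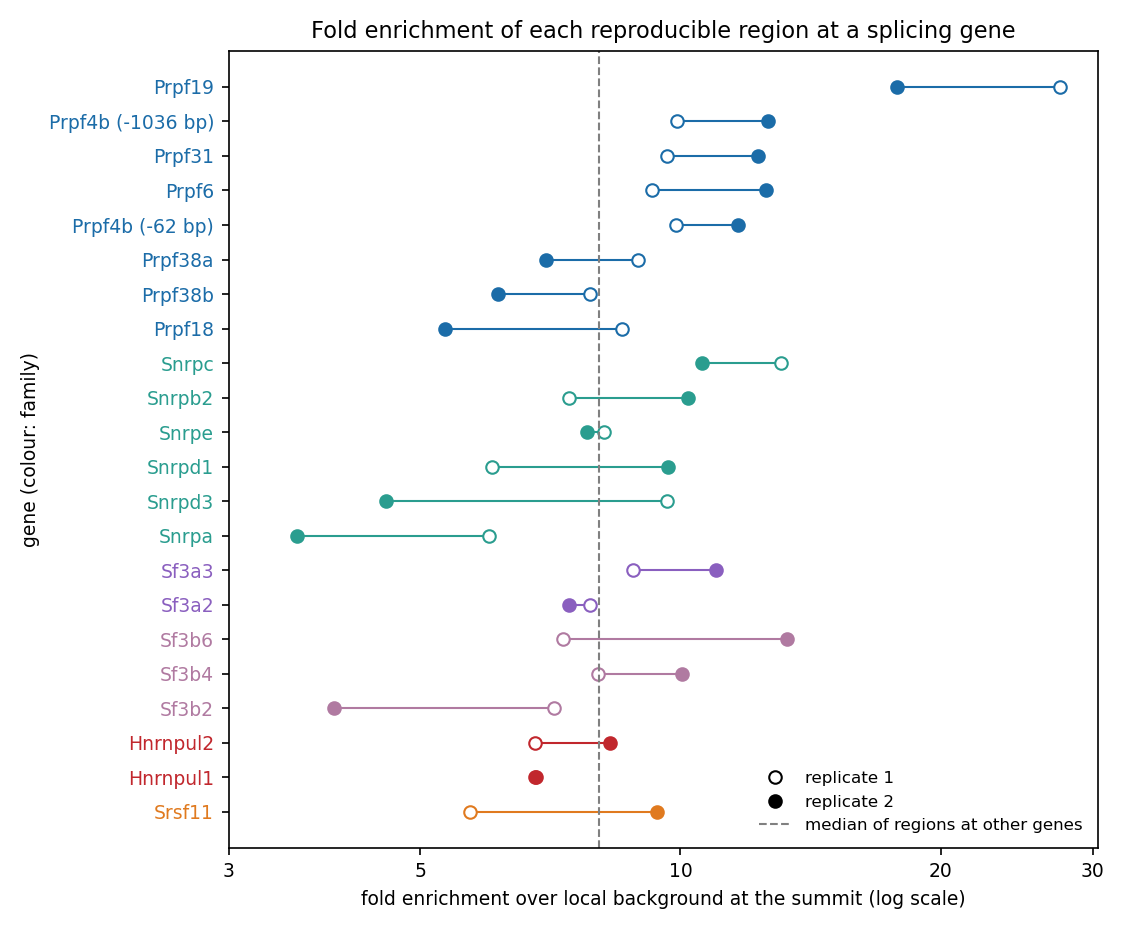
Fold enrichment at the summit (x axis, log scale) of the 22 regions of the combined list at splicing genes (y axis, coloured by family). Replicate 1 is shown as open and replicate 2 as filled circles joined by a line. The dashed line is the median of the 2-replicate mean over regions at other genes, 8.05; Prpf19 stands apart at 27.5 and 17.8, and the lowest circle is Snrpa in replicate 2.

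As a set, the regions at splicing genes were of ordinary strength. The median of the mean fold was 7.96 over the 22 member regions (4.80 to 22.7) and 8.05 over the 1227 regions at ends of other protein-coding genes. A score of at least 540, which stands for an IDR of at most 0.05, was reached by 10 of 22 (45.5%) and by 42.1% of the others. Fold was higher in replicate 2 at 12 of 22 regions, and at 64.8% of the others. At that score 9 splicing genes (13.6%) were left, all in the core families, where 3.10% of other genes had a region. A neighbouring protein-coding gene also ended within that distance of 7 of the 22 (31.8%, against 27.4% of the regions at other genes). Those of Prpf31, Sf3a2 and Snrpd3 were nearer to the neighbour than to the splicing gene.

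Where a start was listed, the regions sat mostly at the starts, not at the far ends, of these genes. An annotated start was listed for 58 of the 66 genes, and for 18 of the 22 regions. The replicate 2 summit lay within 100 bp of a start at 15 of these 18 (83.3%), and upstream of it at 16. Their median position was 55.5 bp upstream. At the other protein-coding genes, 74.0% of 1018 summits lay within 100 bp of a start and 73.2% lay upstream, with a median 26 bp upstream. The measures differ, because member regions were placed by starts of the splicing gene only. Other regions were placed by the nearest start of any gene with an end within 1 kb. The exceptions among the members were Sf3a2 at 107 bp, Hnrnpul1 at position -484 and the first Prpf4b region at position -1036, all upstream. Of the 4 regions without a listed start (Hnrnpul2, Prpf18, Sf3b4 and Snrpd1), each had its summit within 34 bp of an end of the gene. Without a listed strand, that end could not be told to be the start.

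**Figure D3:**
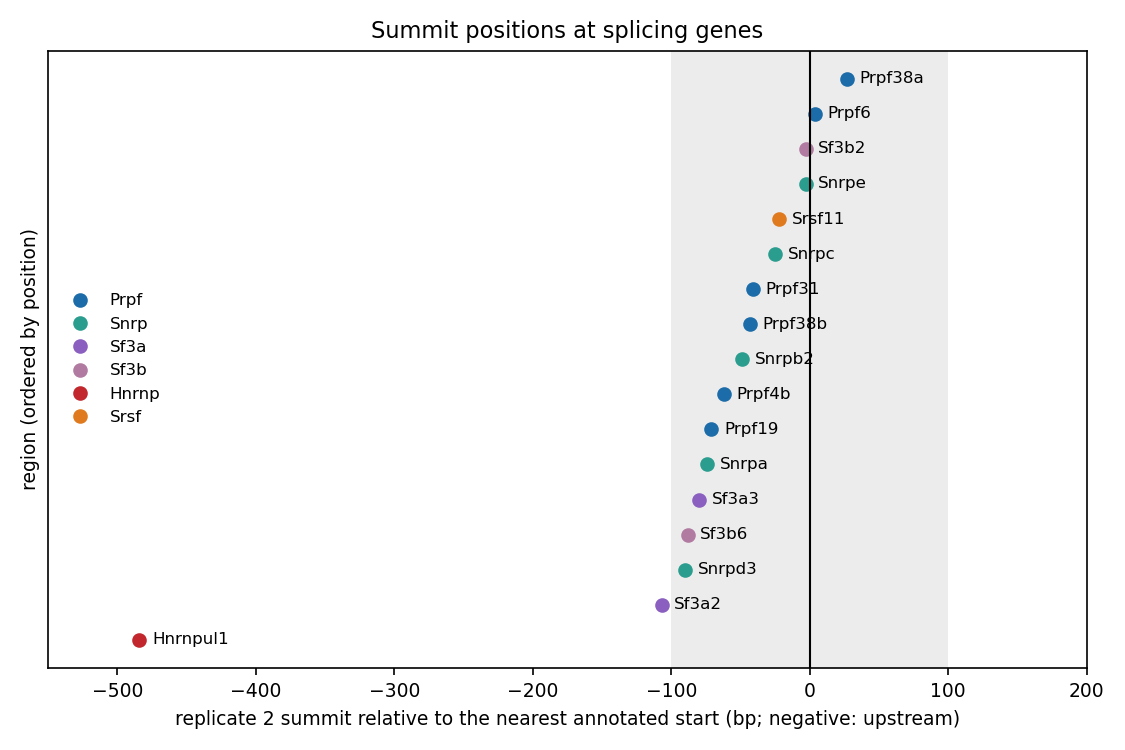
Position of the replicate 2 summit relative to the nearest annotated start of the splicing gene (x axis, bp, negative upstream). The 17 member regions are in order of position (y axis) and coloured by family, and the grey band covers 100 bp on each side. Nearly all lie between 107 bp upstream and 27 bp downstream, Hnrnpul1 lies at -484, and the first Prpf4b region, at -1036, is off the scale.

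The promoters of splicing genes were rich in CpG dinucleotides whether or not Deaf1 was found there. A promoter window of 300 bases, from 250 before to 50 after the start, was called CpG-rich at a GC content of at least 50% and an observed to expected CpG ratio of at least 0.6. At least 1 such start was found for 53 of the 58 splicing genes (91.4%) and for 48.2% of the other genes. Among other genes with a CpG-rich start, 12.3% of 8399 were bound, against 2.11% of the 9035 whose starts were not CpG-rich. Among CpG-rich splicing genes, 17 of 53 (32.1%) were bound. The core families and the Srsf and Hnrnp families did not part by this measure, with 26 of 28 (92.9%) and 27 of 30 (90%) CpG-rich. The median CpG number was 22.5 in promoters of core genes and 29.5 in those of Srsf and Hnrnp genes, so the families with fewer regions had more CpGs. Whether expression level or open chromatin moves with these counts was not tested, since the files hold neither.

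**Figure D4:**
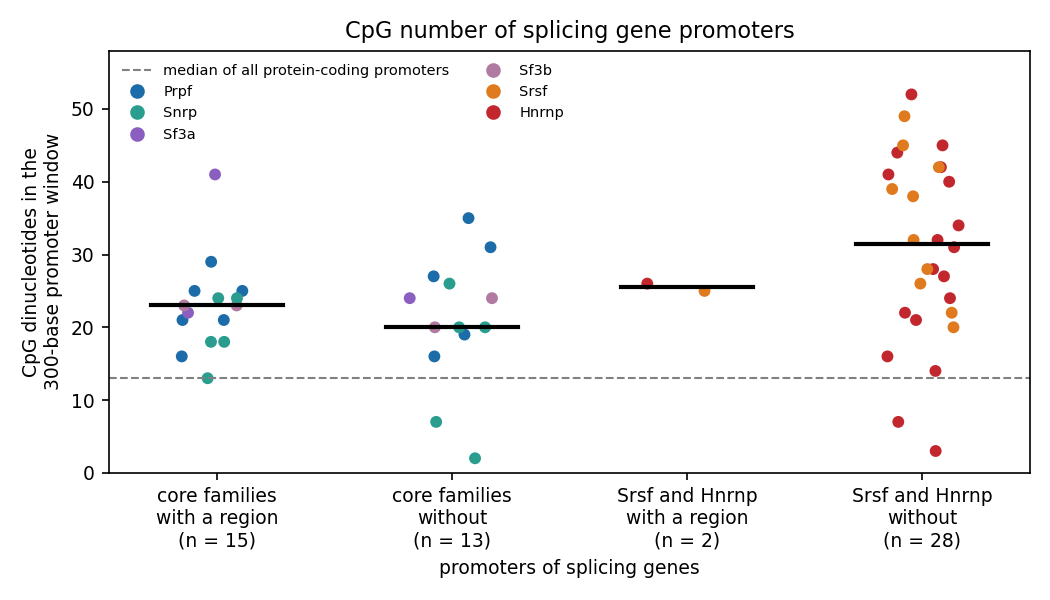
CpG dinucleotides in the 300-base promoter window (y axis) of 58 splicing genes, by family group and presence of a region of the combined list (x axis). Points are genes coloured by family, black lines are medians, and the dashed line is the median over all protein-coding promoters, 13. The 28 unbound Srsf and Hnrnp promoters have the highest median, 31.5, and the 15 bound core promoters have 23.

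The letters of the promoters were searched for 3 motifs on both strands, overlapping matches counted, and 1 promoter taken per gene, the one nearest to the summit where there was a region and otherwise the first listed. Unbound promoters here are those of genes without a combined region at an end, which need not be free of Deaf1. They include Prpf3, Prpf4, Prpf8, Snrpd2, Srsf2 and Hnrnpa0, each with a peak in replicate 2 only. Hnrnpf is also among them, at its first listed start, although its 2 regions lay at internal starts. TTCG was found in 14 of 17 bound splicing promoters (82.4%) and in 30 of 41 unbound ones (73.2%). Of all 17492 protein-coding promoters, 49.0% held it. The longer TTCGG was in 5 of 17 (29.4%) and 16 of 41 (39.0%), against 21.8% of all. At the other genes, TTCG was in 70.2% of bound and 47.4% of unbound promoters, and the longer motif in 39.1% and 20.4%. With CpG-rich promoters only, these shares were 74.3% and 65.5%, and 41.9% and 31.5%. The longer motif was thus more frequent in bound promoters of other genes, and the lower share at bound splicing genes rests on 5 of 17 promoters.

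The ETS-type sequence CCGGAAG, which shares no copy with the Deaf1 core, was in 11 of 17 bound splicing promoters (64.7%). It was in 8 of 41 unbound ones (19.5%), against 12.0% of all promoters. The other genes had the same order, with this motif in 52.8% of 1222 bound and 8.85% of 16212 unbound promoters. Among CpG-rich promoters of other genes these shares were 55.4% and 15.1%. Within the core families alone, it was in 10 of 15 bound and 3 of 13 unbound promoters.

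CCGGAAG was also close to the summits. The replicate 2 summit fell in the promoter window at 16 bound splicing genes, and a CCGGAAG lay within 50 bp of it at 10 of them (62.5%), with 5 to 34 bp from the summit to the motif's centre. Sf3b2 had it at 5 bp, and Prpf19, Prpf4b and Sf3b6 at 6 bp. TTCG lay within 50 bp of the summit at 8 of the 16 (50%), the nearest being Snrpb2 at 2.5 bp, Prpf38b at 5.5 bp and Sf3b6 at 7.5 bp. At other genes, 56.4% of 926 such summits had CCGGAAG within 50 bp and 35.4% had TTCG. In a window of the same 101 bases centred 56 bp upstream of the start, 6.42% of all protein-coding promoters held CCGGAAG and 20.7% held TTCG. Among CpG-rich promoters without a region these shares were 7.14% and 28.5%. In the promoters printed above, Prpf19 holds 1 of each motif, and Snrpc also holds 1 of each. Prpf31 holds 1 TTCG, and a further TTCG of its promoter window lies outside the printed stretch. Prpf6 holds 4 TTCG and has its CCGGAAG after the start, outside the printed stretch. Prpf4b holds a CCGGAAG and no TTCG. Srsf1 and Hnrnpk hold 2 TTCG each and no CCGGAAG. A match describes the letters and does not show which protein was bound.

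Other splicing genes, from 7 lists by role that share no gene with the 6 families, were counted in the same way. Of their 115 genes, 31 (27.0%) had a combined region, where 6.99% of all protein-coding genes had one. With a score of at least 540 the number was 13 of 115, where 3.13% of all protein-coding genes had such a region. The Prp19 complex and the factors of the catalytic steps had 10 of 22 (45.5%), the exon junction complex 4 of 9, other snRNP proteins 6 of 19 (31.6%), the 3′ splice site and U2-associated factors 4 of 13 (30.8%) and the Lsm proteins 2 of 10. The splicing regulators outside the families had 4 of 30 (13.3%), and the SR protein kinases and SR-related proteins 1 of 12 (8.33%).

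**Figure D5:**
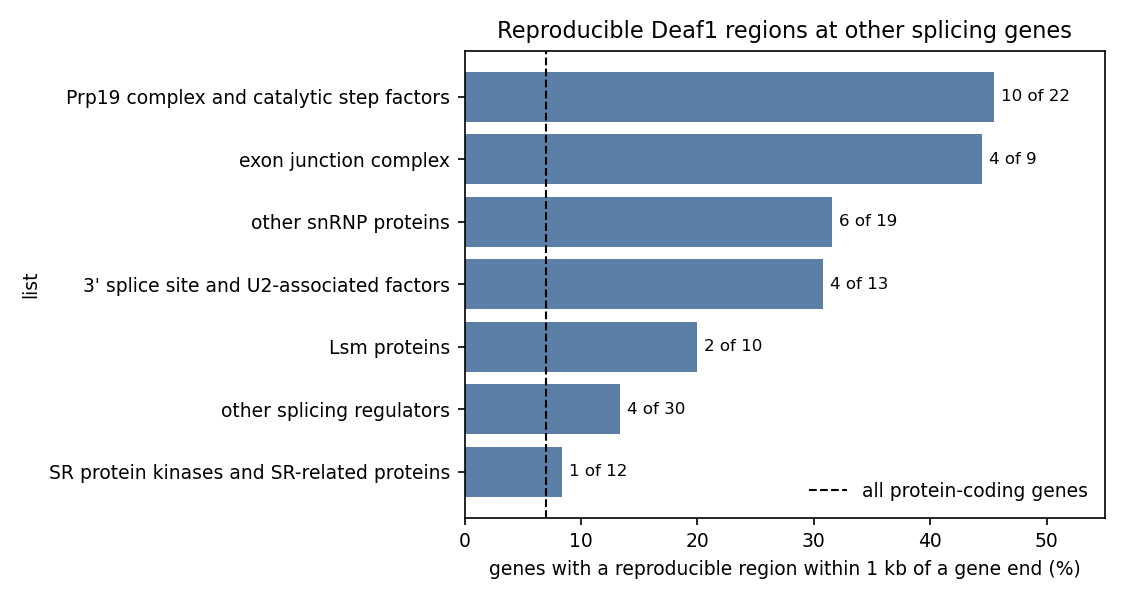
Share of genes (x axis, %) whose ends had a region of the combined list within 1 kb, in 7 lists of other splicing genes (y axis), with counts beside the bars; the dashed line is the share of all protein-coding genes, 6.99%. The lists run from 1 of 12 SR protein kinases and SR-related genes to 10 of 22 genes of the Prp19 complex and the catalytic steps.

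Several of these genes had larger folds than most of the family members. Acin1, an exon junction complex partner, was highest, with 42.7 in replicate 1 and 39.5 in replicate 2, though its IDR was 0.511. U2af2, which encodes the large subunit of the factor that binds the polypyrimidine tract, had a fold of 34.3 in each replicate (95 and 105 fragments, IDR 0.349) in a region 756 bp from its end and also within 1 kb of an end of Ccdc106. A further region near U2af2, with 17.5 and 21.7 (IDR 0.00821), was closer to Epn1. The large folds of Acin1 and of the first U2af2 region thus did not go with a low IDR.

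Snrnp27, the gene of a tri-snRNP protein, had 11.1 and 21.7 (IDR 0.00888). Snrnp200, the gene of the helicase that unwinds U4 from U6, had 14.3 and 16.2 (IDR 0.00949), but the summit was nearer to an end of 1810024B03Rik than to its own, which lay 120 bp away. Eif4a3, the gene of the helicase that anchors the exon junction complex, had 14.2 and 18.3 (IDR 0.00868). Slu7, which encodes a factor of the second catalytic step, had 11.1 and 13.3 (IDR 0.0122). The region of Dhx38 and that of Txnl4b are 1 and the same, with folds of 11.1 and 10.3.

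The remaining listed genes with a region had mean folds near those of the family members. In the Prp19 and catalytic list, Aqr, Bud31, Cwc15, Dhx16, Dhx8, Isy1, Ppil1 and Xab2 ranged from 4.64 (Ppil1) to 10.7 (Bud31). Magoh and Rnps1 of the exon junction complex had 7.81 and 8.10, and among the snRNP genes Luc7l, Ppih and Sart1 had 7.44, 8.71 and 10.6. Of the U2-associated factors, Ddx46 had 6.60, U2af1l4 had 6.63 and the stronger of the Phf5a regions had 7.74, while Lsm2 had 8.48 and Lsm4 had 5.88. The summits at Bud31 and Xab2 were nearer to ends of Pdap1 and Pet100.

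The regulators with a region were Ptbp2, Rbfox2, Nono and Pcbp1. Ptbp2, a repressor of neuronal exons, had 21.3 in replicate 1 and 28.8 in replicate 2, with an IDR of 0.511. The Ptbp2 summit lay 1323 bp from the gene end but 64 bp downstream of an annotated start. Rbfox2, a regulator of muscle and neuronal exons, had 21.3 and 28.2 (IDR 0.0079). The summit of this region lay 1322 bp from the gene end, with only the region's flank within 1 kb, and no start was listed. A weaker Rbfox2 region, with its summit 862 bp from the end, had 4.96 and 6.31 (IDR 0.511). Nono, a paraspeckle protein, had 10.7 and 10.3. The stronger Pcbp1 region reached only 3.77 and 4.93. Tra2b was the 1 SR-related gene, with 5.35 and 2.94 and an IDR of 0.511. No combined region lay at an end of the muscle splicing regulators Mbnl1, Celf1, Rbm20 or Rbm24.

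Genes of other basic machineries were counted for comparison. Among families chosen by symbol, the combined list had regions at 31 of 90 Rpl and Rps ribosomal protein genes (34.4%), 15 of 51 Psm proteasome genes (29.4%) and 7 of 28 Polr RNA polymerase genes (25.0%), beside 31.8% of the splicing genes and 6.99% of all protein-coding genes.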

How the data were processed

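The series holds ChIP-seq of Deaf1 in C2C12 cells, with 2 ChIP and 2 input libraries. The submitters' processing notes name FastQC 0.11.8, BWA 0.7.17-r1198, MACS2 2.1.2 and the build mm10, without roles or settings. Labels give both formaldehyde fixation and native ChIP, a conflict not settled here. Per the labels' layout, each ChIP library has a deposited narrowPeak list with a summit position, a fold (the ratio of ChIP to background there) and a p-value and q-value as −log10. The deposited combined list has 1 score per region, read from its layout as the IDR program's scaled score, in which 540 stands for 0.05; the program and its settings are not given in the sources used here. A further 6 columns of that list, which in this layout repeat the position and strength of each replicate's peak, were not used.

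Pileups and backgrounds were recovered from fold = (pileup + 1)/(background + 1) and the Poisson p-value, and 1 whole-number pileup fitted 100% of peaks. On simulated summits, 100% of 500 were returned exactly. The depth in total reads is not given in the files used here; fragments per summit set the precision. Groups and replicate numbers came from sample titles. The strongest peak of each replicate stood for a region, and an overlap of at least 1 bp joined peaks to regions.

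Gene spans, without strand, came from RefSeq GRCm38.p6, and starts, strand and promoter sequences from the matching RefSeq promoter table, which covers 58 of 66 splicing genes. Members, lists and motifs were chosen with earlier results of these data known, and no test was made. Named genes were all members with a region or peak within 1 kb of an end, members with regions inside the span, listed genes with a combined region, and examples without one. Alternatives changed the score, q, distance, gene part, assignment of shared regions, background genes and replicate. Python 3.11.15, numpy 2.4.6, pandas 2.3.3, scipy 1.17.1 and matplotlib 3.10.9 were used.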

Additional observations from a re-analysis of the deposited data

How the results depend on the processing

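The number of splicing genes with a combined region depended most on the IDR score. At a score of at least 540 it went from 21 to 9, while the share of other genes went from 6.91% to 3.10%, so both shrank. Without replicate 1 the splicing genes numbered 29 and the other genes 11.1%, and without replicate 2 they were 21 and 7.45%. With other genes limited to CpG-rich promoters, their share was 12.3%. The count of splicing genes ran from 18 to 22 under a −log10 q of at least 5, 500 bp, 5 kb, the summit in place of the region, the whole span, annotated starts only, and regions given to the nearest gene. Under these settings the other genes ran from 5.48% to 8.70%. The count of 18 under annotated starts only was out of the 58 splicing genes with a listed start (31.0%). All 17 bound genes with a listed start were kept there. Of the 21 bound genes, Snrpa was lost at the stricter q, Hnrnpul1 at 500 bp and by its summit, and Prpf31, Sf3a2 and Snrpd3 to the nearer neighbour. The median fold at splicing genes was 7.96 over both replicates, 9.53 without replicate 1 and 8.09 without replicate 2. No paired analysis was possible because only the ChIP libraries have peak lists and they form a single group. At a median of 25 and 31.5 fragments per member summit, single genes cannot be ranked between neighbours in fold.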
